A study of Mus musculus with 24 samples.

Results

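The genes described here are 7 mouse members of the S100 family of small calcium-binding proteins, S100a1, S100a4, S100a6, S100a10, S100a11, S100a13 and S100a16. They are 7 of 18 S100 genes in the mouse annotation, one of which is a pseudogene, and 7 of 15561 genes with reads in either line. The members were chosen by their read counts in the C2C12 line, so their levels there, and their difference between lines, are given as a description with no test. The member with the fewest C2C12 reads was S100a16, with 617 reads over 12 libraries, and the S100 gene just outside the set was S100a3, with 22.

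RNA was sequenced on a Nanopore MinION from 2 wild-type mouse cell lines. C2C12 is an established myoblast line, of muscle precursor origin, and NSC34 is an established motor-neuron-like line. In the co-culture groups C2C12 and NSC34 cells shared a culture for 3 days, and in the control groups each line grew without the other. Each line had 6 co-culture and 6 control libraries, 24 in all. The labels do not state how the lines were separated after co-culture, so the 2 tables are taken as the authors named them. Nor do they say that replicates came from separate cultures, so p-values measure the spread between libraries, which may be technical.

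S100 proteins carry a pair of EF-hands, the helix-loop-helix units that bind calcium. Most work as dimers that open a binding face when calcium rises inside the cell and then grip a target such as an annexin, a myosin heavy chain or a calcium channel. Most of the genes lie in a cluster on mouse chromosome 3, and S100 proteins are best known in muscle for S100a1, which binds the calcium release channel and the calcium pump of the sarcoplasmic reticulum.

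C2C12 libraries held between 143502 and 547071 reads in co-culture and between 121154 and 658075 in control. NSC34 libraries were much shallower, at 2807 to 30314 reads in co-culture and 88 to 4624 in control, and 2 NSC34 control libraries had under 1000 reads. The 13 muscle markers made up 1.38% of C2C12 co-culture reads and 1.23% of C2C12 control reads. In NSC34 they made up 0.0309% of co-culture reads and 0.0252% of control reads. The C2C12 muscle reads were mostly Acta1 (6130 co-culture and 4728 control), Myog (5451 and 3530) and Tnni1 (4751 and 3808). These are genes of differentiating muscle. The myoblast factors Myod1 (79 and 31) and Myf5 (35 and 31) had few reads. The C2C12 levels given below can therefore not be taken as those of undifferentiated myoblasts. The 17 neuronal and motor neuron markers made up 0.0205% of C2C12 co-culture reads and 0.0226% of C2C12 control reads, against 0.265% of co-culture reads and 0.240% of control reads in NSC34. The NSC34 reads came mostly from genes such as Uchl1 (72 co-culture and 14 control reads) and Prph (19 and 6). The motor neuron factors Isl1 and Mnx1 and the cholinergic genes had few reads or none. Isl1 had 2 co-culture and 1 control reads and Chat had 1 and 0, while Slc18a3, Slc5a7 and Mnx1 were at 0. In C2C12 the neuronal marker reads were mostly Stmn2 (193 of 371 in co-culture and 176 of 338 in control), which was at 0 in NSC34.

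All 7 genes lie on chromosome 3 of GRCm38, 5 of them between positions 90511034 and 90624181 and the other two, S100a11 and S100a10, between 93520488 and 93564643. S100a1 is on the minus strand and the other members are on the plus strand. S100a1 and S100a13 sit head to head, with 42 bases between the ends of the 2 genes. The S100 span holds 61 other protein-coding genes, of which 14 had any C2C12 read and 0 had enough to be tested.

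The promoters of 5 members are printed because the members differ there and in level. The windows run from 250 bases before to 50 after the RefSeq start and are given in GRCm38.p6, from RefSeq. Both strands were searched for 4 motifs, a TATA box (TATAAA), a GC box (GGGCGG), an AP-1 site (TGANTCA) and an E-box (CANNTG). Capitals mark matches of the first 3, and E-box matches are left in lower case. Of 27025 mouse promoters of the same length, 14.2% hold the TATA box, 35.9% the GC box, 7.93% the AP-1 site and 72.1% the E-box.
S100a6 promoter, chr3:90612644-90612943, plus strand: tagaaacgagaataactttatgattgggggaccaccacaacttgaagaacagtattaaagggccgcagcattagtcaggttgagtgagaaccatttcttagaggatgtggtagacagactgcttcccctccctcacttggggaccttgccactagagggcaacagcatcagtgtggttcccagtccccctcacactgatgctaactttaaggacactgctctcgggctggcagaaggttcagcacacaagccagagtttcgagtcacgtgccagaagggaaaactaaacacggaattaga
S100a11 promoter, chr3:93520246-93520545, plus strand: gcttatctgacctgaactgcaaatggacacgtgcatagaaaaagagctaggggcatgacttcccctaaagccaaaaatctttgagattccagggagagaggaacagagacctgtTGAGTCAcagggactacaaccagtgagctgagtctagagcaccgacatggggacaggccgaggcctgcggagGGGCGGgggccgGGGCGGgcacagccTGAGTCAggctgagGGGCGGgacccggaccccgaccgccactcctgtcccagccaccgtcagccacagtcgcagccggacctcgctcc
S100a4 promoter, chr3:90603520-90603819, plus strand: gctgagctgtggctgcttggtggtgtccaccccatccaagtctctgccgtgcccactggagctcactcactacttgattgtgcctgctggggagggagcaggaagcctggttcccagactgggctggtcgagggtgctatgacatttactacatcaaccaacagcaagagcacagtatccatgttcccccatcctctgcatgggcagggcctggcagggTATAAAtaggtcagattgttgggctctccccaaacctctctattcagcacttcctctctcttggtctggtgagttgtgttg
S100a13 promoter, chr3:90514185-90514484, plus strand: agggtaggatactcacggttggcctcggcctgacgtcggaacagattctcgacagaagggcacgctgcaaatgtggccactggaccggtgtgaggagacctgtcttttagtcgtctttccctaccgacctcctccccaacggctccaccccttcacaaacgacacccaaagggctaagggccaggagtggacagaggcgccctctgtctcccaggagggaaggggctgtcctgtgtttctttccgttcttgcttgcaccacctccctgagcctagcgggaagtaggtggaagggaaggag
S100a16 promoter, chr3:90537004-90537303, plus strand: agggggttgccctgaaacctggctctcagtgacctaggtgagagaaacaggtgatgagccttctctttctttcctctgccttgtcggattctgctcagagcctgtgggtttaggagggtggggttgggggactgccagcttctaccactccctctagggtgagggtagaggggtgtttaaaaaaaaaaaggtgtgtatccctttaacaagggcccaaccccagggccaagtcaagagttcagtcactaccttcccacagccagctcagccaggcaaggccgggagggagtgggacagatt

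S100a11 had 3 GC boxes, starting 64, 52 and 24 bases before the start, and 2 AP-1 matches, 136 and 38 bases before it. S100a4 had a TATA box 31 bases before the start and no match to the other motifs. The windows of S100a6, of S100a13 and of the upstream start of S100a16 held no TATA box, GC box or AP-1 match. E-box matches numbered 2 in the S100a6 window, 2 in that of S100a11 and 1 each in those of S100a13 and the upstream S100a16 start. The window of S100a1, which overlaps that of S100a13 on the other strand, held none of the 4 motifs. The S100a6 window covers the start of only 1 of its transcripts, which held 30.9% of its co-culture reads and 35.2% of its control reads in C2C12. The transcript with the most reads starts downstream of the window, at 90613305. The S100a11 window held 15 CpG and the S100a4 window 2, against a median of 7 over all promoters. S100a16 has a second annotated start further downstream, whose window held a GC box, an AP-1 match and 4 E-box matches. Yet 97.9% of its co-culture reads and 96.6% of its control reads in C2C12 were on the transcript of the upstream start shown here.

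The members differed widely in level within C2C12. Per kilobase of transcript over the 12 libraries, S100a6 averaged 16917 ± 1966 CPM (the read count scaled to the total of the library) and S100a11 averaged 3085 ± 381 (SD, n = 12). S100a6 was thus 5.48 times S100a11 per kilobase, and every S100a6 library was above every S100a11 library. S100a10, at 1338 ± 103 CPM per kilobase, and S100a4, at 1299 ± 235, could not be ordered per kilobase. On that scale S100a10 was the higher in 5 of 12 libraries. In CPM not divided by length S100a10 was the higher in every library. It averaged 901 CPM in co-culture and 933 CPM in control, against 574 and 719 CPM for S100a4. Below them came S100a13 at 409 ± 68.8 and S100a1 at 305 ± 49.4 CPM per kilobase, whose ranges overlapped although S100a13 was higher in all 12 libraries. Per kilobase S100a16 was the lowest member, at 157 ± 39.8 CPM, and its range lay below that of S100a1. In CPM not divided by length the ranges of these genes overlapped. They were 160 to 254 CPM for S100a16 and 175 to 277 CPM for S100a1 in co-culture. In control they were 111 to 222 CPM and 158 to 221 CPM. Whether division by length suits these reads was not tested. Together the members took 1.38% ± 0.0879 of reads in co-culture and 1.38% ± 0.147 in control (SD, n = 6 each), and S100a6 supplied 72.8% and 70.8% of those member reads.

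Co-culture moved no member past the threshold in C2C12. With edgeR's quasi-likelihood test and Benjamini-Hochberg adjustment over 2569 genes, 37 genes passed at an adjusted p under 0.05, which is 1.44% of those tested (21 higher in co-culture, 0.817%, and 16 lower, 0.623%), and 0 of the 7 members did in either direction. DESeq2 and limma-voom also called 0 of the 7. All 7 members passed the filter on low counts. At an unadjusted p under 0.05 there were 2 members, S100a16 and S100a4, against 14.7% of all genes tested. The co-culture and control libraries of every member overlapped in CPM of all reads, while 1.71% of all tested genes had groups that did not overlap.

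Members that bind annexins include S100a6, S100a11 and S100a10. S100a6, also called calcyclin, binds annexins and the calcyclin-binding protein. In co-culture its lowest, median and highest levels were 9397, 9836 and 11809 CPM of all reads, against 7992, 10066 and 12210 CPM in control. The co-culture libraries all lay within the control range. Its log2 fold change was 0.03 (SE 0.09, 95% interval -0.16 to 0.21, edgeR adjusted p = 0.959), and the upper end of the interval is a 1.16-fold rise.

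S100a11, or calgizzarin, binds annexin A1. It ran from 1257 over a median of 1545 to 1749 CPM in co-culture, against 1367, 1610 and 2003 CPM in control. One co-culture library was below the lowest control library and the groups otherwise overlapped. The co-culture over control log2 ratio was -0.10 (SE 0.10, 95% interval -0.30 to 0.10, edgeR adjusted p = 0.736). S100a11 shares at least 90% identity over at least 100 bases with 5 pseudogenes, of which Gm12854 had 1 C2C12 read and the others 0.

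S100a10, or p11, has lost calcium binding and forms a stable complex with annexin A2. Its co-culture libraries ran from 798 over a median of 890 to 1006 CPM, against 866, 915 and 1025 CPM in control. The ranges overlapped, with 2 co-culture libraries below the lowest control. On the log2 scale the difference was -0.06 (SE 0.08, 95% interval -0.22 to 0.11, edgeR adjusted p = 0.843). Its partner Anxa2 differed by -0.07 on the same scale (edgeR adjusted p = 0.800).

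S100a4, also called metastasin, binds non-muscle myosin heavy chain and is known for its part in cell motility. It ran from 467 over a median of 581 to 666 CPM in co-culture, against 585, 728 and 850 CPM in control. All 6 co-culture libraries were below the control median and 3 were below the lowest control library, but the ranges overlapped. Co-culture differed from control by -0.29 on the log2 scale (SE 0.12, 95% interval -0.53 to -0.04, unadjusted p = 0.0259), and it missed the threshold with an edgeR adjusted p of 0.242. S100a4 overlaps a read-through gene model, Gm42674, which had 0 reads.

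S100a1, the muscle member, ran from 175 over a median of 219 to 277 CPM in co-culture, against 158, 194 and 221 CPM in control. In 3 co-culture libraries it was above the highest control library, and 2 were below the control median. The difference on the log2 scale was 0.24 (SE 0.14, 95% interval -0.06 to 0.53, edgeR adjusted p = 0.486). S100a13, which shares the stretch of promoter with S100a1 and is known for helping fibroblast growth factor 1 leave the cell without the classical secretion route, ran from 259 over a median of 286 to 350 CPM in co-culture, against 223, 282 and 404 CPM in control. Its co-culture libraries lay within the control range, and its log2 fold change was 0.06 (SE 0.14, 95% interval -0.23 to 0.35, edgeR adjusted p = 0.927).

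S100a16, a broadly expressed member, ran from 160 over a median of 201.4 to 254 CPM in co-culture, against 111, 135 and 222 CPM in control. All 6 co-culture libraries were above the control median, but only 1 was above the highest control library. Its log2 fold change was 0.45 (SE 0.16, 95% interval 0.11 to 0.78, unadjusted p = 0.0117), and with an edgeR adjusted p of 0.174 it too missed the threshold.

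**Figure D1:**
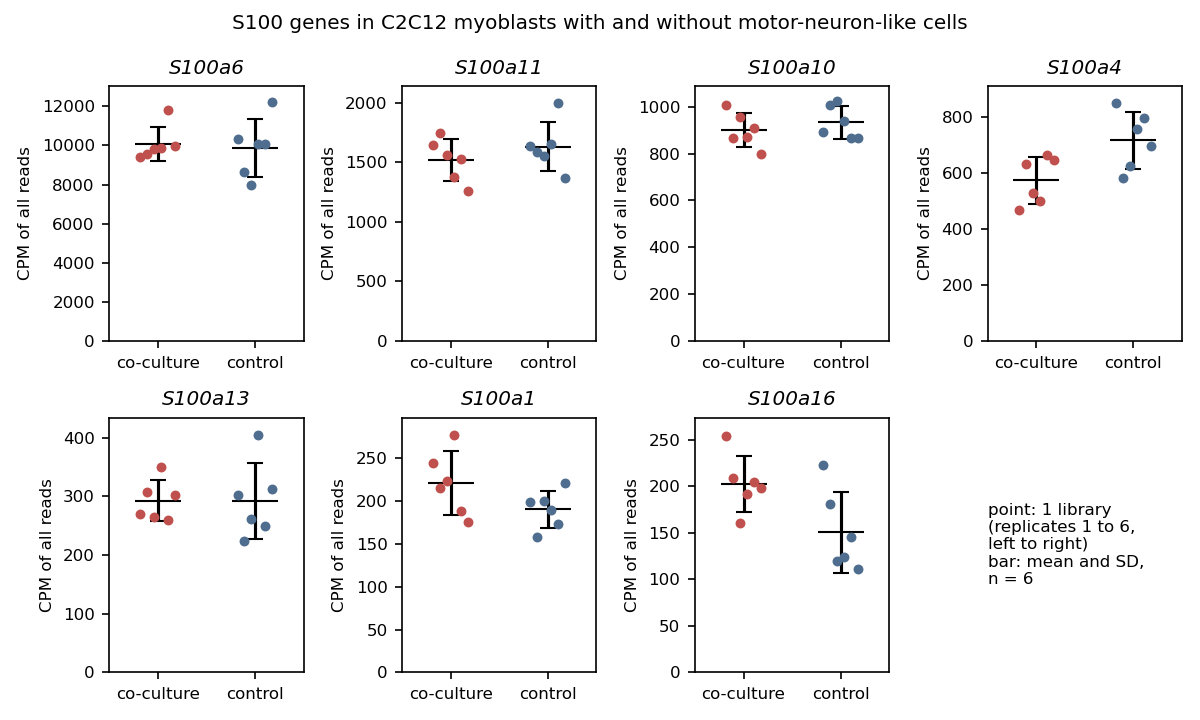
Level of each S100 gene in C2C12 libraries, in CPM of all reads (y axis, from 0), with co-culture left of control; points are libraries and bars the mean and SD of 6 libraries. The 2 groups overlap in every panel; S100a4 averaged 574 CPM in co-culture and 719 CPM in control, and S100a16 averaged 202.7 CPM in co-culture and 150 CPM in control.

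Other genes of the pathway were tested as lists chosen with earlier results known. Of 35 known S100 partners and targets, 17 had enough reads to be tested, and 1 rose and 1 fell, against 1.44% of all genes called, with 3 of the 17 at an unadjusted p under 0.05 against 14.7% of all genes and a median log2 fold change of 0.07 against 0.00 over all genes tested. Atp2a1, the fast-muscle calcium pump, rose, at 158 ± 22.4 CPM in co-culture and 98.3 ± 19.4 CPM in control (SD, n = 6 each), a log2 difference of 0.66 (SE 0.16, edgeR adjusted p = 0.0362). Ahnak, the giant scaffold that the complex of S100a10 and annexin A2 binds, fell, at 388 ± 66.1 CPM in co-culture and 597 ± 159 CPM in control (SD, n = 6 each), a log2 difference of -0.65 (SE 0.15, edgeR adjusted p = 0.0349). The Ahnak groups overlapped, at 293 to 498 CPM in co-culture and 347 to 741 CPM in control. Neither the Atp2a1 nor the Ahnak call was followed through the alternative settings. Of 10 muscle markers tested, 2 rose and 0 fell, against 0.817% and 0.623% of all genes tested. Myog rose by 0.43 and Ckm by 0.64 in log2 terms. The other 8 did not pass and lay between -0.37 for Myh3 and 0.41 for Des, with Mymk at -0.04. At an unadjusted p under 0.05 there were 5 of the 10 markers, against 14.7% of all genes. The log2 fold change was positive for 8 of the 10, with a median of 0.23 against 0.00 over all genes tested. The part of the muscle markers in the Atp2a1 result was not tested.

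Of 53 other EF-hand proteins, 33 were tested and 0 passed in either direction, with a median log2 fold change of -0.02 and 7 at an unadjusted p under 0.05. The 2 with the smallest p were Sparc, a matrix glycoprotein, at -0.29 (edgeR adjusted p = 0.0525), and Tnnc2, the fast troponin C that triggers contraction, at 0.23 (edgeR adjusted p = 0.0856). Of 9 calcium-handling genes without EF hands, 5 were tested and 0 passed, with 1 at an unadjusted p under 0.05, the 2 with the smallest p being the endoplasmic reticulum chaperones Canx at -0.49 (edgeR adjusted p = 0.129) and Calr at -0.25 (edgeR adjusted p = 0.467).

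**Figure D2:**
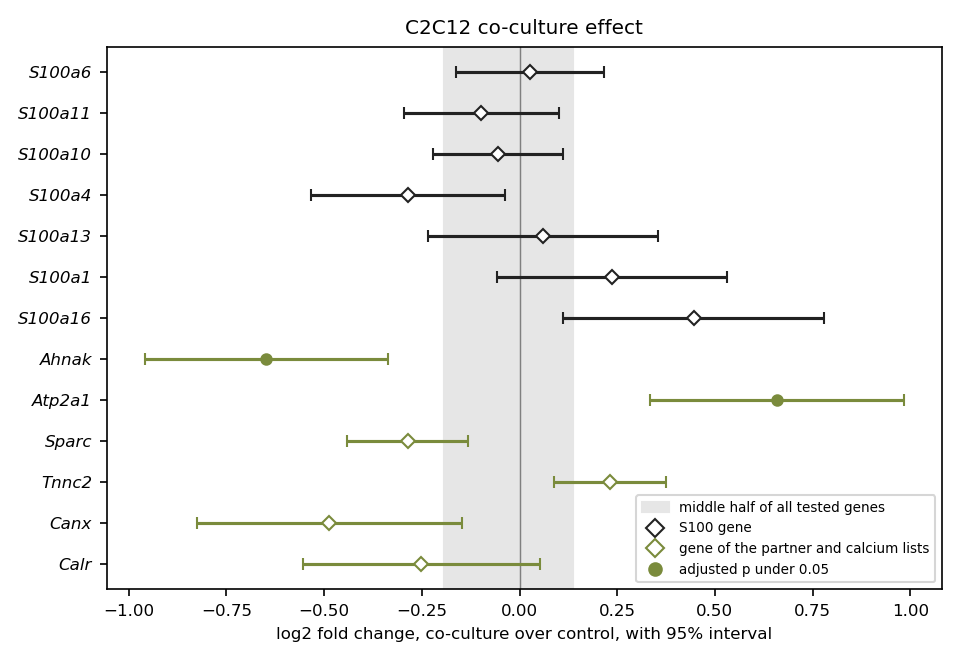
Log2 fold change of co-culture over control in C2C12 (x axis) with its 95% interval, for the 7 S100 genes and the named list genes (y axis); the grey band spans the quartiles of all 2569 genes tested and filled circles passed at an adjusted p under 0.05. No S100 gene passed; Ahnak and Atp2a1, at -0.65 and 0.66, did.

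S100a6 reads were assigned to 3 transcripts. The long form (ENSMUST00000001051, 731 bases) and the short form (ENSMUST00000198128, 464 bases), named here for their first exons, are protein-coding, share exons 2 and 3 and differ in the first, of 345 bases in the long form and 78 in the short form. The decay form (ENSMUST00000200289, 783 bases) is annotated as a nonsense-mediated decay target. Its first 2 exons lie inside exons of the others and its last, at 90623727 to 90624181, lies far downstream. A read that lacks the first exon does not tell the long from the short form. A read confined to the stretches that the decay form shares with them tells none of the 3 forms apart. The labels do not say how such reads were assigned.

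The share of the long form in the co-culture libraries was 32.4%, 33.9%, 31.3%, 30.3%, 25.9% and 31.4%, against 35.6%, 35.4%, 37.3%, 37.8%, 34.0% and 31.7% in the control libraries. In 4 of 6 co-culture libraries it was below every control library, but the groups overlapped. It averaged 30.9% ± 2.73 in co-culture and 35.3% ± 2.23 in control (SD, n = 6 each), a difference of -4.43 points with a two-sided exact permutation p of 0.00866, or 0.0260 adjusted over the 3 transcripts of the gene. This test was chosen after the values were seen, so its p is not independent evidence, and with 1 library left out the unadjusted exact p ran up to 0.0173. The short form averaged 56.9% ± 3.34 in co-culture and 53.5% ± 2.26 in control (exact permutation p = 0.0758), and the decay form averaged 12.3% ± 1.07 in co-culture and 11.2% ± 2.28 in control (exact permutation p = 0.307).

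In the edgeR fit of C2C12 transcripts, 10 of 2586 passed, which is 0.387%, and 0 of the 9 member transcripts tested did. At an unadjusted p under 0.05 there were 3 of the 9, the main transcripts of S100a4 and S100a16 and the long form of S100a6, against 10.9% of all transcripts. The long form differed by -0.18 on the log2 scale (SE 0.07, unadjusted p = 0.0280, edgeR adjusted p = 0.357), the short form had 0.10 (edgeR adjusted p = 0.880) and the decay form had 0.14 (edgeR adjusted p = 0.852). None of the 3 transcripts of S100a6 passed in level.

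**Figure D3:**
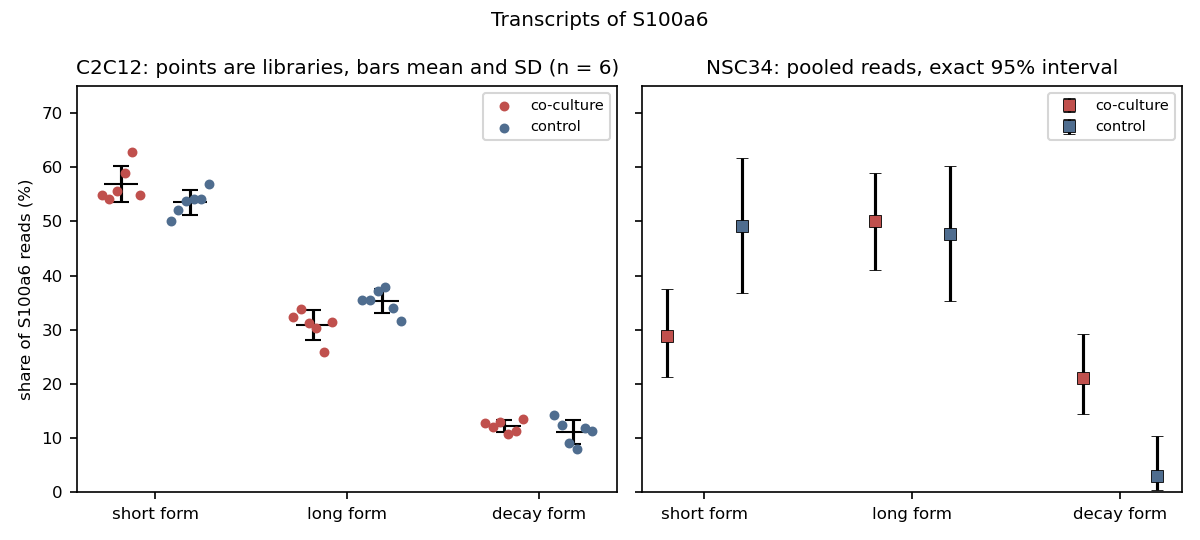
Share of S100a6 reads (y axis, %) on each of 3 transcripts, co-culture left of control, in C2C12 (left, a point per library with mean and SD of 6) and NSC34 (right, pooled reads with exact 95% intervals). In C2C12 the long form averaged 30.9% in co-culture and 35.3% in control.

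In NSC34 reads were found for 5 of the 7 members. S100a6 had 128 co-culture and 67 control reads, S100a10 had 14 and 3, S100a13 had 8 and 6, S100a1 had 1 and 3, and S100a4 had 1 and 0. S100a11 and S100a16 had 0 reads in all 12 NSC34 libraries, where 0 reads allows up to 54.5 CPM in co-culture and 189 CPM in control, taking 3 reads as the limit. These limits and all intervals on pooled reads cover counting error only. S100a6 again led, with 84.2% of member reads in co-culture and 84.8% in control.

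S100a6 was read in all 6 NSC34 co-culture libraries and in 5 of 6 control libraries. Its co-culture libraries ran from 2111 over a median of 2486 to 2797 CPM of all reads, against 0, 3924 and 8933 CPM in control. The control library at 0 was the one with 88 reads, and 4 of the other 5 control libraries were above every co-culture library. In the edgeR test 6 of 1109 NSC34 genes passed, which is 0.541%, and 0 of the 3 members with enough reads to be tested, S100a6, S100a10 and S100a13, did. At an unadjusted p under 0.05 there was 1 member, S100a6, against 7.75% of the genes tested. The log2 fold change of S100a6 was -0.85 (SE 0.32, 95% interval -1.49 to -0.22, unadjusted p = 0.00812, edgeR adjusted p = 0.332), and -0.86 without the 2 control libraries under 1000 reads (edgeR adjusted p = 0.384). It was -0.51 without control library 4 and -1.07 without control library 3, -0.50 with TMM factors and -0.46 with DESeq2, and did not pass in any of these. It was 0.39 (SE 0.90) for S100a10 and -1.25 (SE 0.82) for S100a13, with edgeR adjusted p of 0.979 and 0.827. With 1 library left out S100a10 ran from 0.01 without control library 3 to 1.38 without control library 2, and S100a13 from -1.41 without control library 2 to -0.80 without control library 5.

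The co-culture effect was compared between lines directly. For S100a6 the effect in C2C12 minus that in NSC34 was 0.88 on the log2 scale (SE 0.29, 95% interval 0.30 to 1.45, unadjusted p = 0.00351, edgeR adjusted p = 0.290). S100a13 had a difference of 1.44 (SE 0.79, edgeR adjusted p = 0.637) and S100a10 of -0.49 (SE 0.82, edgeR adjusted p = 0.937). Of 1091 genes tested 0 passed, a share of 0, while 8.80% had an unadjusted p under 0.05, and limma-voom called 0 of these 3 members. A different co-culture effect in the 2 lines was therefore not shown for any member.

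Levels of the lines are set side by side here. Pooled over 6 libraries, S100a11 was at 1568 CPM in C2C12 co-culture and at 0 in NSC34 co-culture, at least 28.8-fold higher in C2C12, and in control it was at least 8.60-fold higher. S100a4 was 32.5-fold higher in C2C12 in co-culture, from 1 NSC34 read (95% interval 5.82 to 1284), and at least 3.54-fold higher in control. These folds rest on CPM of all reads, and bounds and ratios from so few NSC34 reads cannot be ranked.

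S100a6 was in both lines, at 10074 CPM in C2C12 and 2327 CPM in NSC34 in co-culture, a ratio of 4.33 (95% interval 3.64 to 5.19), and at 9360 CPM in C2C12 and 4225 CPM in NSC34 in control, a ratio of 2.22 (1.74 to 2.86). S100a10 had ratios of 3.53 (2.10 to 6.47) in co-culture and 5.08 (1.73 to 24.7) in control. S100a13 had ratios of 1.996 (1.01 to 4.65) in co-culture and 0.695 (0.317 to 1.91) in control, so in control the lines could not be told apart. For S100a1 the ratio was 11.9 (2.12 to 470) in co-culture and 0.946 (0.320 to 4.62) in control. S100a16 was at least 3.84-fold higher in C2C12 in co-culture, and in control no difference was detectable at this depth.

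In a joint edgeR fit on library totals, the fitted log2 fold change of C2C12 over NSC34 was above 1 for 6 of 7 members in co-culture and 5 in control, where it was above 1 for 33.2% and 40.0% of the 2694 genes fitted. Because the members were picked for their C2C12 reads, nothing is read from these counts. Scaling with TMM factors in place of library totals moved the median of all genes from 0.21 to 0.80 in co-culture and from 0.34 to 1.61 in control. Under TMM the fitted control differences of S100a1 and S100a13, at -0.02 and -0.43 on library totals, became 1.25 and 0.85. Where a library may hold both lines, as in co-culture, a smaller number of cells of a line and less RNA per cell cannot be told apart.

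**Figure D4:**
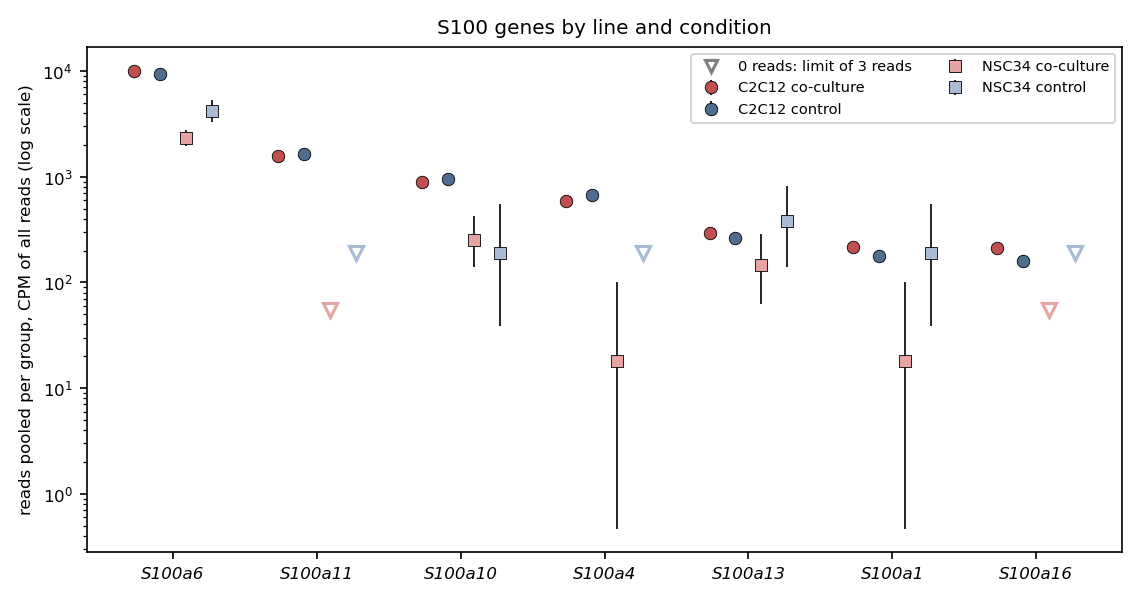
Level of each S100 gene in CPM of all reads (y axis, log scale) with reads pooled over 6 libraries per group, for C2C12 co-culture and control and NSC34 co-culture and control; bars are exact 95% intervals and open triangles mark 0 reads at the limit of 3 reads. S100a11 was at 1568 CPM in C2C12 co-culture and had 0 reads in NSC34.

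Muscle markers in the NSC34 libraries stand beside these values. Of the 13 muscle markers, 12 were at 0 in NSC34 co-culture, where all 17 reads were of Chrna1, the muscle acetylcholine receptor subunit, which also had 3 reads in control. In NSC34 control Myh3 had 1 read. Outside these markers, the troponin gene Tnnc1 had 2 NSC34 co-culture and 0 control reads, against 12876 and 10704 in C2C12. Tnnc2, Myl1 and Myl4 were at 0 in NSC34. Whether any of these reads came from C2C12 cells was not tested. S100a11, the second most abundant member in C2C12, was at 0 in the NSC34 co-culture and control libraries.

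The S100a6 reads of NSC34 were spread over the same 3 transcripts in other proportions. The decay form held 27 of 128 reads in co-culture, or 21.1% (exact 95% interval 14.4 to 29.2), against 2 of 67 in control, or 2.99% (0.364 to 10.4). Without the deepest co-culture library the share was 20.3% (11.3 to 32.2). By library it ran from 0% to 42.9% in co-culture, against 0% in 4 and 10% in 1 of the 5 control libraries with S100a6 reads. The short form held 28.9% in co-culture and 49.3% in control, and the long form held 50% in co-culture and 47.8% in control. No test was made of these shares.

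Across the 12 C2C12 libraries the members did not move as a block. Of 21 pairs of members 10 had a positive Pearson correlation, with a median of -0.02 and a range of -0.47 to 0.48. The genes whose log2 CPM was most like the mean of the standardised members were Rps25 (r = 0.886, rho = 0.853), Rpl26 (0.874 and 0.839) and Rps16 (0.855 and 0.797), components of the ribosome, then Atp5e, a subunit of ATP synthase (0.838 and 0.867), and Gm10177 (0.825 and 0.867). The mean of the members correlated at -0.47 with log2 library size, and the libraries share the same lines and groups.

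The other S100 genes were barely read in C2C12. Of the 11, 5 had reads there, 37 in all against 44884 for the members. There were 6 with reads in neither table, among them S100a8 and S100a9 of neutrophils. S100b, the glial member, had 1 co-culture and 5 control reads in C2C12. S100a3 had 15 co-culture and 7 control reads in C2C12 against 13 and 2 in NSC34. In co-culture it was thus at 8.28 CPM in C2C12 and 236 CPM in NSC34. Its 15 NSC34 reads in all stood beside 14 for the member S100a13 and 17 for the member S100a10. Its count is uncertain, since the transcript with most of its reads shares at least 100 bases at 90% identity or more with 272 other genes.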

How the data were processed

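The authors deposited unscaled read counts of Ensembl transcripts in a table for each line, whose columns are the libraries, per the file headers. The build is GRCm38, per the submitters' processing notes. Which aligner, counting program and strand setting were used is not given in the sources used here. All columns were matched to samples by name, with 0 left over. Transcripts were named from GENCODE M21, which matched 37411 of 37677 C2C12 and 10374 of 10427 NSC34 identifiers. The rest, 0.235% and 0.238% of reads, were kept as features of their own, and counts were summed per gene.

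C2C12 genes were tested with edgeR 4.0.16 in R 4.3.3 (filterByExpr, TMM factors, quasi-likelihood test). NSC34 and the joint fits used library totals and genes with at least 10 reads in the line or, for levels between lines, also those tested in C2C12, since NSC34 libraries of 88 to 30314 reads leave few reads per gene, which limits precision there to large differences. Standard errors, 95% intervals and adjusted p-values come from those fits. Shared sequence was searched with BLAST+ 2.17.0. The fits were tested on simulated data. Alternatives were DESeq2 1.42.0, limma 3.58.1 (voom), other scaling and filters, removal of the length trend, a replicate block and each library left out.

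The members and gene lists were chosen with earlier results of these data known. Genes named are the 7 members, the other S100 genes, from each list those past the threshold (otherwise the 2 with the smallest p), and the 5 most like the members' mean. Anxa2, Tnnc1, Myl1, Myl4, Myog, Ckm, Chrna1 and the other marker genes were named after their values were seen.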

Additional observations from a re-analysis of the deposited data

Results flagged for a closer look

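The S100a6 level in C2C12 co-culture library 5 was 11809 CPM of all reads, far above the nearest of the other 5 co-culture libraries at 9965 CPM. The gap is 0.765 of the group's range, above the 0.625 that marks a sample far from 5 others. This was 1 of 22 groups looked at, and chance alone marks about 1 group in 20. The same library had the lowest share of S100a6 reads on the long form, 25.9%, and without it the log2 fold change of S100a6 in C2C12 was -0.02, against 0.03 with it. The cause was not tested.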

How the results depend on the processing

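In C2C12 0 of 7 members passed under each of the 22 alternatives, in NSC34 0 of 3 under 19, and 0 of 3 in the difference between lines under 28. The smallest adjusted p was 0.0914 for S100a16 (without control replicate 1) and 0.0957 for S100a4 (length trend removed). Over all C2C12 genes the 37 called became 58 on library totals, 106 with no filter, 10 without control libraries 1 and 4 and 11 to 74 with 1 library left out (22, 12, 17 and 19 without co-culture 1, 2, 3 and 5; 18, 11, 74 and 73 without control 1, 3, 5 and 6). In NSC34 the 6 called became 10 with TMM, 3 with no filter, 3 with limma-voom, 0 with filterByExpr and 0 with DESeq2, and 2 to 11 with 1 library left out (11 without co-culture 6, 2 and 3 without control 3 and 5). Members over 2-fold higher in C2C12 in control became 3 with limma-voom. Signs turned for S100a10 in C2C12 with no filter (0.033) and under limma-voom in NSC34 (-0.63) and between lines (0.71), and for S100a6 in C2C12 with the length trend removed (-0.0070). With 1 library left out S100a6 ran from -0.036 to 0.097 and S100a13 from -0.057 to 0.17, its transcript from -0.076 to 0.12. The cause was not tested. The long-form share of S100a6, whose alternatives were added after seeing the data, differed by -5.14 to -3.43 points with 1 library left out (exact permutation p from 0.00433 to 0.0173) and by -4.53 to -4.22 under the others. Deviations of same-numbered libraries correlated from -0.05 to 0.10 in C2C12 and -0.05 to 0.07 in NSC34. Such weak correlations cannot tell whether replicate numbers pair libraries, which the labels do not say. With the replicate block, 26 C2C12 and 7 NSC34 genes were called and 0 members, and the exact p of the long-form share was 0.03125. The block could not be fitted for levels of C2C12 over NSC34, since replicates are nested in lines. Depth limits NSC34: 1 read in co-culture is 18.2 CPM.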
